A study of Homo sapiens with 4 samples.

Results

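Serum response factor (SRF) and 9 genes of the actin contractile apparatus were followed in TPC1 cells during RET inhibition. The members were taken by gene symbol, namely SRF, ACTA2, TAGLN, CNN1, CNN2, MYL9, TPM1, TPM2, VCL, and FLNA, and all 10 were found among the 20372 genes of the count table. TPC1, an established line of human papillary thyroid carcinoma, carries the CCDC6-RET rearrangement, and BLU6864 is a RET inhibitor. Cells were exposed to BLU6864 for 6 h or 24 h, with 2 RNA-seq libraries at each time. Both groups therefore carry the drug, and a vehicle group was not analysed here. The labels give a dose of 100 µM and short single-end reads, the methods a dose of 100 nM and paired-end reads, and the labels mark the 24 h libraries as re-analysed. The comparison asks how gene expression moved between early and later exposure.

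The 6 h libraries held 23917056 and 26829072 counts, and the 24 h libraries held 26486456 and 27457040. Libraries of the same time differed by more than sampling noise, by a chi-square of 8.66 (6 h) and 6.67 (24 h) for each degree of freedom, and were kept as separate replicates. No label says that they came from separate cultures, so a P value here measures only the spread between these libraries. In bulk RNA, fewer cells of a type and less RNA per cell cannot be told apart.

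SRF is a transcription factor that binds the CArG box, a pair of C, a run of A or T, and a pair of G. It works with MRTF cofactors, which are held back by monomeric actin and released when actin polymerizes, or with ternary complex factors such as ELK1, which are phosphorylated by ERK. The MRTF branch is known for genes of the actin cytoskeleton and of smooth muscle contraction, and the other branch for immediate early genes such as FOS.

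All 10 members were tested, and both 24 h libraries lay above both 6 h libraries in 10 of 10. A gene was called where its log2 fold change exceeded 0.5 in size with an unadjusted P under 0.01 in edgeR. These cutoffs were adapted from the methods, which used DESeq2, state the size cutoff for lower genes, and do not say whether P was adjusted. By this rule 7 members were higher at 24 h and 0 were lower, whereas among all 12876 genes tested 17.4% were higher and 17.7% lower. With an adjusted P under 0.05 in edgeR's quasi-likelihood test, 10 members were higher, beside 33.0% of all genes higher and 32.6% lower. Both 24 h libraries exceeded both 6 h libraries in 41.0% of all genes tested. The median log2 fold change of the members was 0.77, from 0.17 in TPM2 to 2.66 in TPM1, and that of all genes tested was 0.0029. Together the members took 0.205% and 0.211% of the counts at 6 h and 0.376% and 0.420% at 24 h. FLNA alone made up between 50.2% and 58.9% of these counts.

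**Figure D1:**
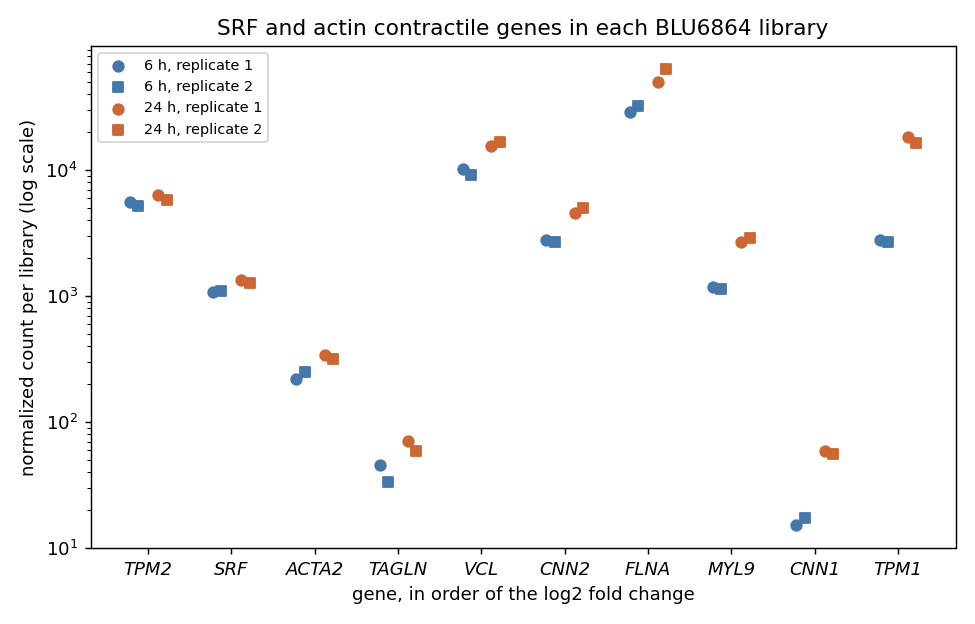
Normalized counts of the 10 members on a log axis, 1 point per library, at 6 h and 24 h of BLU6864, with genes in order of their log2 fold change. In every member both 24 h libraries lie above both 6 h libraries, from a small step in TPM2 to the 6.30-fold rise of TPM1.

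The regulator itself stayed short of the size cutoff. SRF (ENSG00000112658), on chromosome 6 of hg19 from 43139037 to 43149243, had 1083 and 1089 normalized counts at 6 h and 1341 and 1274 at 24 h, where a normalized count is a raw count scaled to the mean of the TMM-adjusted library sizes. The 24 h libraries were the higher pair, without overlap. The log2 fold change of SRF was 0.27 (standard error, SE, 0.0737), with a Benjamini-Hochberg adjusted P of 0.00248 in edgeR. Its position was 3991 in the order of log2 fold changes from the highest down. The 5 genes whose pattern over the 4 libraries lay closest to SRF, among 9454 genes with a mean CPM (counts scaled to a common library total) of at least 10, were ZBTB2, EEF1E1, RPL3, C6orf120, and GCNT3. Their Euclidean distances on the log2 scale ran from 0.0150 for ZBTB2 to 0.0190 for GCNT3.

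The members were taken by name around SRF, and their promoters were searched for the CArG box that SRF binds. RefSeq promoters on GRCh38.p14, each with 250 bases before and 50 after the start, matched 8 of the 10 members, and TAGLN and MYL9 had no entry. An exact box, with 6 A or T bases inside, was found in 3 of the 8, namely SRF, CNN2, and FLNA, and in 1.29% of 27305 promoters of all genes. With up to 1 mismatch, the box occurred in the same 3 members and in 19.3% of all promoters. The pattern is its own reverse complement, so one search covers both strands. As the members were chosen by name, a share above that of all promoters may follow from that choice. A link between the boxes and the changes was not tested. SRF held 2 exact boxes, which begin 30 and 10 bases before the start, and the box of CNN2 begins 89 bases and that of FLNA 94 bases before it. A match describes the letters and not binding, and its absence concerns this window alone. Only the first promoter listed for each gene was searched. Other starts of a gene, which may be the ones used in these cells, were not. The 120 bases before the start are shown for the 3 members with a box and for TPM1, which rose most and had none in the window searched. They are chr6:43171149-43171268 (plus strand) for SRF, chr19:1026488-1026607 (plus strand) for CNN2, chrX:154374635-154374754 (minus strand) for FLNA, and chr15:63048369-63048488 (plus strand) for TPM1, read 5′ to 3′ along the gene with CArG boxes in capitals.
SRF: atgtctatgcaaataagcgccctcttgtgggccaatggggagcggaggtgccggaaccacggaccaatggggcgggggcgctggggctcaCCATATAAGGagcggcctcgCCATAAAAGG
CNN2: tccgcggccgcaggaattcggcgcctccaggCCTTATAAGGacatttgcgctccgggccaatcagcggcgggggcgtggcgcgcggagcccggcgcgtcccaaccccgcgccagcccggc
FLNA: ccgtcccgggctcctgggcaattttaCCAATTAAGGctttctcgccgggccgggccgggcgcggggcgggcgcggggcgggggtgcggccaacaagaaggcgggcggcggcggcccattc
TPM1: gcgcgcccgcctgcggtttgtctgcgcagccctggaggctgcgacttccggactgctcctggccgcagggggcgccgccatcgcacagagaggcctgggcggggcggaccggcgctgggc

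Of the actins, ACTA2 (ENSG00000107796, chromosome 10 from 90694831 to 90751147) encodes the smooth muscle alpha isoform. It had 219 and 248 normalized counts at 6 h and 342 and 317 at 24 h. The groups did not overlap, and the log2 fold change of 0.49 (SE 0.113, edgeR Benjamini-Hochberg adjusted P = 0.000445) lay just under the size cutoff. It crossed that cutoff with upper quartile scaling (0.52) and without the second library of 24 h (0.55) or of 6 h (0.58). In the table ACTA2 overlaps FAS by 734 bases and STAMBPL1 by 40080 bases. FAS had a log2 fold change of -0.60 and STAMBPL1 one of 0.03, and shared reads were not separated. The cytoplasmic isoforms ACTB and ACTG1 were both higher, with log2 fold changes of 0.52 and 0.59, though ACTB fell under the cutoff with library size alone (0.48) and without the second library of 24 h (0.47) or of 6 h (0.48). ACTA1, ACTC1, and ACTG2 had too few counts to be tested. Per length, ACTA2 made up 0.204% and 0.233% of actin counts at 6 h and 0.226% and 0.195% at 24 h, so its share overlapped between the times.

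Among the tropomyosins, which lie along actin filaments, TPM1 rose most of all members. TPM1 (ENSG00000140416, chromosome 15 from 63334831 to 63364114) had 2807 and 2706 normalized counts at 6 h against 18332 and 16418 at 24 h. Both 24 h libraries were far above the 6 h pair, with means of 17375 ± 1353 at 24 h and 2757 ± 70.9 at 6 h (SD, n = 2). This is a log2 fold change of 2.66 (SE 0.0825, edgeR Benjamini-Hochberg adjusted P = 2.88e-20), or 6.30-fold, and 107 of the 12876 genes tested had a larger one. TPM2 (ENSG00000198467, chromosome 9 from 35681989 to 35691017) had 5540 and 5193 normalized counts at 6 h and 6283 and 5822 at 24 h. Its lowest 24 h library was only slightly above its highest 6 h library. The log2 fold change of TPM2 was 0.17 (SE 0.0732). The Benjamini-Hochberg adjusted P of TPM2 was 0.0399 in edgeR and became 0.0593 with DESeq2, 0.123 with library size alone, 0.266 without the first 24 h library, and 0.199 without the second 6 h library, in a range from 0.0119 to 0.266 over the alternatives. TPM3 and TPM4 had log2 fold changes of -0.39 and -0.38, short of the size cutoff.

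The tropomyosin family also differed in its makeup. As shares of family counts per transcript length, TPM1 made up 13.5% and 13.5% at 6 h and 53.3% and 52.3% at 24 h. TPM4, at 48.0% and 48.7%, was the leading member at 6 h, and it made up 23.0% and 23.2% at 24 h. TPM2 went from 27.3% and 26.4% to 18.7% and 19.0%, and TPM3 from 11.1% and 11.5% to 5.10% and 5.63%. In no tropomyosin did the shares of the 6 h and 24 h libraries overlap. The ratio of TPM1 to TPM2 per length was 0.495 and 0.510 at 6 h and 2.85 and 2.76 at 24 h. These shares rest on 1 transcript length for each gene, and gene counts do not separate splice isoforms. Of the 50-base windows of each transcript, 23.5% of TPM4 and 6.5% of TPM3 also occur in other annotated genes, against 0% of TPM1 and TPM2. How reads from such windows were treated was not tested. Without division by length, TPM1 took 6.69% and 6.57% of the family's counts at 6 h and 36.0% and 34.7% at 24 h. On that scale TPM2 was nearly level, at 13.2% and 12.6% against 12.3% and 12.3%, TPM3 went from 31.9% and 32.5% to 20.0% and 21.7%, and TPM4 from 48.2% and 48.3% to 31.6% and 31.3%. The order and the size of the shares of TPM2 and TPM3 thus depend on the lengths used.

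**Figure D2:**
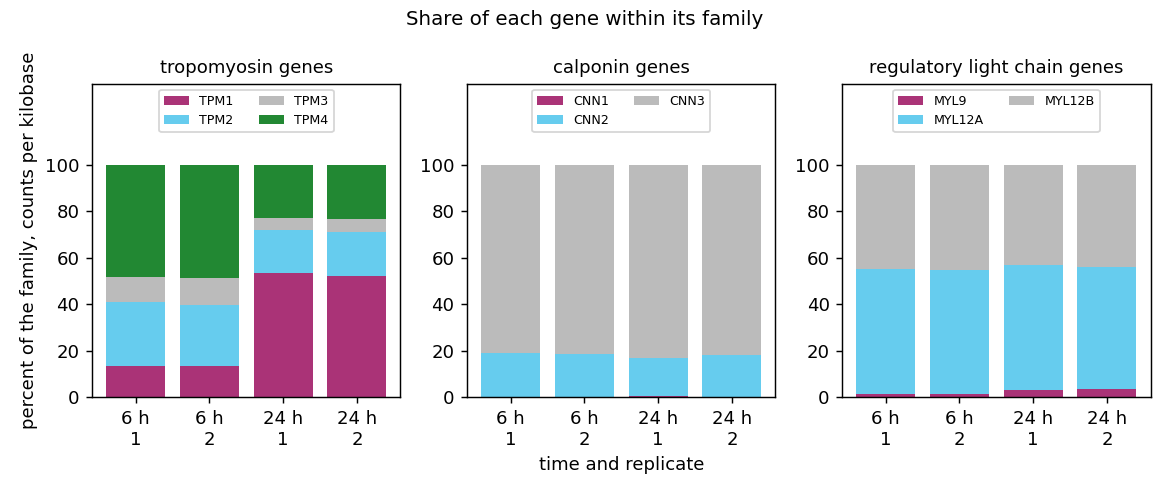
Share of each gene in the counts of its family, per transcript length, in each of the 4 libraries, with bars stacked in percent. In the tropomyosin panel TPM1 goes from 13.5% in both 6 h libraries to over 52% in both 24 h libraries, and TPM4 from 48.0% and 48.7% to 23.0% and 23.2%.

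Calponins and transgelins are actin-binding proteins that share a calponin repeat. CNN1 (ENSG00000130176, chromosome 19 from 11649532 to 11661138), the calponin of differentiated smooth muscle, had 14 and 18 raw counts at 6 h and 59 and 57 at 24 h. Both later libraries stood well above the earlier pair, but at a low level. The log2 fold change of CNN1 was 1.81 (SE 0.279, edgeR Benjamini-Hochberg adjusted P = 2.95e-06). CNN2 (ENSG00000064666, chromosome 19 from 1026298 to 1039068), which is more widely expressed, had 2801 and 2663 normalized counts at 6 h and 4592 and 4964 at 24 h. The times were clearly separate, with a log2 fold change of 0.81 (SE 0.0727, edgeR Benjamini-Hochberg adjusted P = 2.35e-10). CNN3, the remaining calponin, rose by a log2 fold change of 0.94. Per length CNN1 stayed a small part of the family, at 0.146% and 0.170% of calponin counts at 6 h and 0.304% and 0.289% at 24 h.

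TAGLN (ENSG00000149591, chromosome 11 from 117070037 to 117075498), which encodes transgelin or SM22, had 42 and 35 raw counts at 6 h and 71 and 61 at 24 h. The groups did not overlap, and the log2 fold change was 0.73 (SE 0.232, edgeR Benjamini-Hochberg adjusted P = 0.00756). This call was the least firm of the 7, since DESeq2 gave an adjusted P of 0.0754, and the edgeR adjusted P was 0.0735 without the first 24 h library and 0.128 without the second 6 h library, in a range from 0.00291 to 0.128 over the alternatives. Of the 50-base windows of its transcript, 65.5% also occur in another annotated gene. TAGLN also overlaps PCSK7, which had a log2 fold change of -0.27, by 446 bases. The counts of TAGLN may therefore depend on how shared reads were treated, which was not tested. The other transgelins moved apart. TAGLN2, by far the most abundant, fell by 0.61 on the log2 scale, and TAGLN3 rose by 1.51. TAGLN made up 0.138% and 0.101% of transgelin counts per length at 6 h and 0.320% and 0.272% at 24 h.

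MYL9 (ENSG00000101335, chromosome 20 from 35169887 to 35178228) encodes a regulatory light chain of myosin II. It had 1176 and 1142 normalized counts at 6 h and 2680 and 2891 at 24 h. Both 24 h libraries were more than double either 6 h library, and the log2 fold change was 1.27 (SE 0.0727, edgeR Benjamini-Hochberg adjusted P = 2.11e-14). The related light chains MYL12A and MYL12B, named after their values were seen, had log2 fold changes of 0.12 and 0.07 and were not called. Per length MYL9 made up 1.56% and 1.42% of the counts of these 3 genes at 6 h and 3.15% and 3.41% at 24 h. Of 26 tested genes of myosin II and its regulators, 5 were called higher and 1 lower, with a median log2 fold change of 0.08. The share called higher was near the 17.4% of all genes, so that count does not set this list apart. The share called lower, 1 of 26, was under the 17.7% of all genes, a difference that was not tested. The higher genes were RHOB (1.52), a small GTPase, MYLK (1.10), the kinase that phosphorylates the light chain, RND3 (0.79), MYH9 (0.75), a heavy chain, and DIAPH2 (0.62), a formin. MYH9 lost its call without the second 24 h library (0.48). DIAPH3, another formin, fell by 3.45 on the log2 scale, from 1443 and 1222 normalized counts to 136 and 107.

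Vinculin and filamin A connect actin to adhesions and to other filaments. VCL (ENSG00000035403, chromosome 10 from 75757872 to 75879918) had 10279 and 9214 normalized counts at 6 h and 15659 and 16674 at 24 h. The later pair was higher, with a log2 fold change of 0.73 (SE 0.0794, edgeR Benjamini-Hochberg adjusted P = 8.07e-09). FLNA (ENSG00000196924, chromosome X from 153576892 to 153603006) had 29062 and 31991 normalized counts at 6 h and 49835 and 63656 at 24 h. The 24 h libraries of FLNA differed most among themselves (56746 ± 9773, SD, n = 2), yet both exceeded the 6 h pair. Its log2 fold change was 0.89 (SE 0.0990, edgeR Benjamini-Hochberg adjusted P = 1.12e-08), and fits that each left out a library gave 0.71 to 1.07. FLNC, another filamin, had a log2 fold change of 0.15 and was not called.

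**Figure D3:**
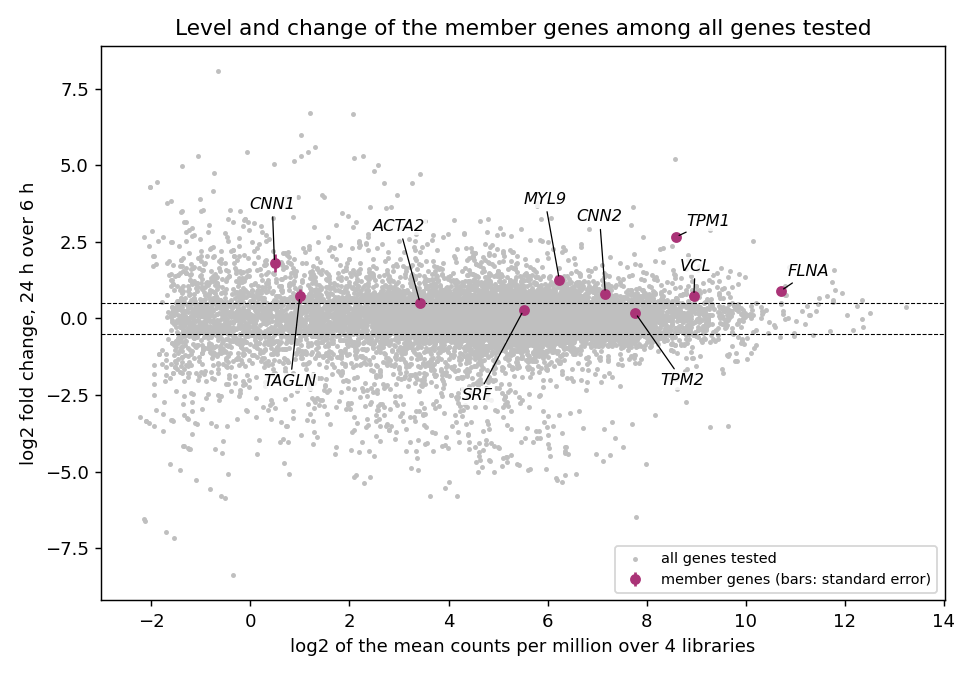
Log2 fold change of 24 h over 6 h against the log2 of the mean CPM for all genes tested (grey) and the 10 members (purple, with standard errors), with dashed lines at the size cutoff of 0.5. The members span low levels (CNN1, TAGLN) to high ones (FLNA), and SRF, ACTA2, and TPM2 lie between the dashed lines.

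Levels of different members were compared as CPM per kilobase of transcript. At 6 h the order was TPM2 (172), FLNA (137), TPM1 (86.6), VCL (67.8), CNN2 (48.6), MYL9 (15.9), SRF (9.81), and ACTA2 (6.61), followed by CNN1 (0.413) and TAGLN (0.398). Only CNN1 and TAGLN overlapped between libraries among neighbours in this order. At 24 h TPM1 led with a level of 546, followed by FLNA (255), TPM2 (194), VCL (112), CNN2 (85.0), MYL9 (38.2), SRF (11.8), ACTA2 (9.34), CNN1 (1.46), and TAGLN (0.657). No neighbours overlapped between libraries at 24 h. CNN1 lay above TAGLN only after division by length, since raw counts at 24 h were 59 and 57 for CNN1 and 71 and 61 for TAGLN. Against the order at 6 h, TPM1 and TPM2 had traded the first and the third place, so that FLNA lay above TPM2. This order rests on 1 transcript length for each gene. Without division by length, FLNA led at 6 h (1111 and 1223 CPM) and at 24 h (1905 and 2434). On that scale TPM2 had 212 and 199 CPM at 6 h, and TPM1 had 701 and 628 at 24 h.

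Of the 28 other adhesion and actin-binding genes, all tested, 12 were called higher and 2 lower, beside 17.4% and 17.7% of all genes. The median log2 fold change of this list was 0.34. The largest rises were those of TLN2 (1.62), a talin, TNS1 (1.59), a tensin, ACTN1 (1.35), an alpha-actinin, and FHL2 (1.25), a LIM domain protein. LMO7, another LIM domain protein, fell by 1.96 on the log2 scale. The smallest rise, that of PXN (paxillin, 0.54), was lost with library size alone (0.49) and without the second 24 h library (0.48).

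Of 6 cofactors of SRF tested, 1 was called higher and 0 lower, and their median log2 fold change was 0.07. The share called higher is again near the 17.4% of all genes, of which 17.7% were lower. The higher one was MRTFA (MKL1 in the table), a cofactor that monomeric actin holds back, with 649 and 749 raw counts at 6 h and 1067 and 1200 at 24 h. The groups did not overlap, and its log2 fold change was 0.65 (SE 0.0811, edgeR Benjamini-Hochberg adjusted P = 8.87e-08). MRTFB had a log2 fold change of 0.12, ELK1 -0.03, ELK4 0.02, ELK3 0.43, and SCAI, an inhibitor of MRTF, -0.22, and none was called. MYOCD, the cofactor of smooth and cardiac muscle, had 0 counts in each library.

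Of the immediate early genes bound by SRF, 6 were tested, 4 were called lower and 0 higher, beside 17.7% and 17.4% of all genes. The median log2 fold change of this list was -0.98. EGR2 had 45 and 56 raw counts at 6 h and 6 and 5 at 24 h. FOS had 271 and 226 normalized counts at 6 h and 89.7 and 58.4 at 24 h. Both genes were low in each 24 h library, and their log2 fold changes were -3.21 and -1.75. JUNB fell by 1.18 and IER2 by 0.78, whereas FOSB (-0.32) and EGR1 (0.30) were not called, and EGR3 and EGR4 were not tested. FOSB overlaps ERCC1 (-0.50) by 7185 bases, and JUNB overlaps HOOK2 (0.31) by 1815 bases. Shared reads were not separated. Across all 6 lists of related genes, 23 of 75 tested were higher and 8 lower, beside 17.4% and 17.7% of all genes. The median log2 fold change of these 75 was 0.13.

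**Figure D4:**
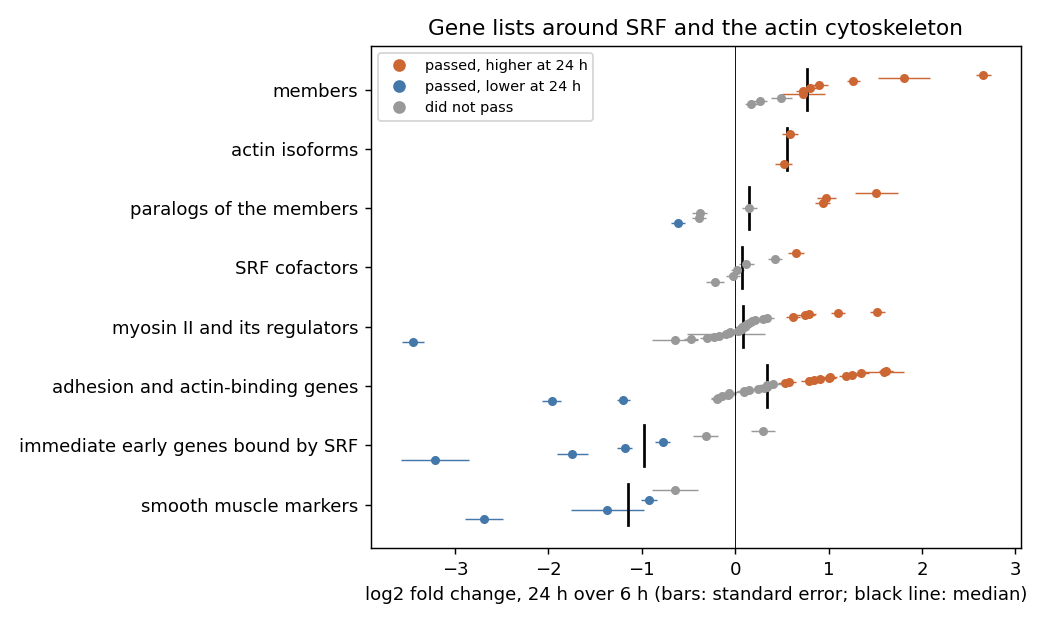
Log2 fold changes of 24 h over 6 h of the members and of the genes tested in each list, 1 point per gene with its standard error, and the median of each list as a black line. The members lie above 0, with a median of 0.77, and the immediate early genes lie mostly below 0, with a median of -0.98.

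Contractile genes also mark smooth muscle cells and fibroblasts, so markers of other cell types were measured beside them. The marker counts stand beside 17.4% of all genes tested that were called higher and 17.7% lower. Of 8 smooth muscle markers 4 were tested, 3 were lower, and 0 were higher, and their summed level was 48.1 and 55.3 CPM at 6 h and 25.1 and 25.3 at 24 h. SMTN was the most abundant, and MYOCD and CASQ2 were at 0. DES fell by 2.69, SYNPO2 by 1.37, and SMTN by 0.92 on the log2 scale, and MYH11 (-0.65) was not called. MYH11 overlaps NDE1 (-1.58) by 23182 bases, and shared reads were not separated. Of 8 fibroblast markers 4 were tested, with 2 higher and 2 lower, and their sum was 23.4 and 24.2 CPM at 6 h and 10.6 and 12.3 at 24 h. PDGFRB was the most abundant, and COL1A2 and COL3A1 were at 0. PDGFRB fell by 1.48 and COL1A1 by 1.57, LUM rose by 0.75, and THY1 went from 0 and 3 raw counts to 22 and 28. Both sums were lower at 24 h, opposite to the members, and their part in the members' values was not tested.

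The thyroid label was checked in the same way, beside the same 17.4% of all genes higher and 17.7% lower. Of 7 thyroid follicular cell markers 3 were tested, with 1 higher and 1 lower. PAX8, at a log2 fold change of -0.06, was the most abundant, and the sum was 808 and 862 CPM at 6 h and 785 and 831 at 24 h. NKX2-1 and TSHR were at 0, TG fell by 1.09 on the log2 scale, and FOXE1 rose by 0.84. The sum of 5 epithelial markers was 111 and 104 CPM at 6 h and 112 and 112 at 24 h, led by KRT8, and of the 3 tested KRT19 fell by 1.59 and 0 were called higher. EPCAM and CDH1 had too few counts to be tested. Without a vehicle group, effects of the drug and of culture time cannot be told apart for any of these changes. The label of re-analysis falls on both 24 h libraries and on neither 6 h library. Any difference in handling that it marks cannot be told apart from time.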

How the data were processed

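TPC1 libraries of 6 h and 24 h of BLU6864 were analysed from the raw count of reads per gene that the authors deposited. The authors aligned reads to hg19 with STAR (2.3 in the submitters' processing notes, a later version in the methods). The methods refer to a stranded library kit and the labels to a TruSeq RNA protocol. The counting program and whether counting used strand are not given in the sources used here, so counts of overlapping genes are uncertain. Another 4 columns of per-sample values, counts divided by size factors, were not used. The columns of the authors' own DESeq2 comparison, which hold log2 fold changes and P values, were not used either.

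Counts were tested here with edgeR 4.0.16 in R 4.3.3 (filterByExpr, TMM, quasi-likelihood test, time as the single factor) across 12876 genes, which hold 99.97% of the counts. P values were adjusted by the Benjamini-Hochberg method over these genes. The standard error (SE) is the size of the log2 fold change over the root of the F statistic. The biological coefficient of variation was 0.0521. Alternatives were DESeq2 1.42.0, other scalings and filters on low counts, a call by an adjusted P under 0.05, a block for the replicate number, and each library left out.

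Members and lists were chosen with earlier results of these data known. Genes named were all members, every gene of a list of up to 8, and in longer lists up to 4 with the largest rise and up to 4 with the largest fall among those called. Values of a few genes under this rule are not reported here. DIAPH2, PXN, MYL12A, and MYL12B were named after their values were seen. The lists were actin isoforms, paralogs of members, myosin II and its regulators, SRF cofactors, adhesion and actin-binding genes, immediate early genes, and the cell type markers. Transcript lengths were those of Ensembl canonical transcripts in GENCODE, matched by Ensembl identifier. Python 3.11.15 with matplotlib 3.10.9 drew the plots.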

Additional observations from a re-analysis of the deposited data

How the results depend on the processing

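The number of members called higher was 7, and it was 6 with DESeq2, 8 with upper quartile scaling, and between 6 and 8 with each library left out. The number called lower was 0 under each alternative, and with an adjusted P under 0.05 as the call 10 members were higher. Of 100 values of the 10 members under the alternatives, 94 kept their side of the cutoffs, 3 lost the call (TAGLN), 3 gained it (ACTA2), and 0 changed direction. The called genes of the lists lost the call in 6 of 309 values. With an adjusted P under 0.05 as the call, 4247 of all genes were higher and 4196 lower. Of the genes of the lists, 34 were then higher in place of 23, and 17 were lower in place of 8. That rule has no size cutoff and another limit on P, and their parts were not separated. With each library left out, from 2124 to 2262 genes were higher and from 2179 to 2221 lower. The median of all genes was -0.04 with library size alone and 0.033 with upper quartile scaling.

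Replicate numbers 1 and 2 occur at both times, and nothing states what they mark. Libraries with the same number had deviations correlated at 0.129, which with 2 pairs does not establish a pairing. With the replicate number as a block, 7 members, 23 genes of the lists, and 2283 of all genes were higher, and 0, 9, and 2313 were lower.

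Fits without a library leave 1 library in a group, which is assumed to vary like the others. Depth limits CNN1 and TAGLN, which had at most 59 and 71 raw counts in a library.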
